A study of Mus musculus with 12 samples.

Results

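Nos2, Nox1 and Keap1 are the oxidant enzymes and the oxidant sensor on a panel of inflammatory mRNAs that was counted in mouse oviducts after lipopolysaccharide (LPS). The 3 genes were chosen by name, with earlier results of these data known, out of 179 inflammation genes, so their levels are given as a description and not as a test of a forecast. All 3 passed the filter on low counts, as did 165 of the 179 genes. The mice were female, of the outbred CD1 stock, and 6 to 8 weeks old. Each had one intraperitoneal injection in phosphate-buffered saline on the day of estrus, and oviducts were taken 24 h later. Control mice were given 0 µg of LPS (control, 4 mice), low-dose mice 2 µg (4 mice) and high-dose mice 10 µg (4 mice), from Escherichia coli serotype 055:B5. The labels name no genotype or transgene. The comparisons ask how LPS dose affects inflammatory mRNAs in the oviduct.

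Nos2 encodes inducible nitric oxide synthase, which makes nitric oxide from arginine in macrophages and many other cells once bacterial products and interferon-gamma have switched the gene on. Nox1 encodes the catalytic subunit of an NADPH oxidase that passes electrons across a membrane to oxygen and so makes superoxide, and it is best known from colon epithelium and vascular smooth muscle. Keap1 is the adaptor of a ubiquitin ligase that keeps the transcription factor Nrf2 (gene Nfe2l2) at a low level, and oxidants and electrophiles modify its cysteines and release Nrf2. Nitric oxide is also known to relax the muscle wall of the oviduct.

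Promoters of 2 of the 3 genes were present in a RefSeq table (build GRCm38.p6) and are shown because NF-kB is the transcription factor that LPS is best known to activate. Each line holds the 250 bases before the annotated start of transcription, read 5′ to 3′ on the minus strand, on which both genes lie. The Nox1 window is chrX:134111855-134112104 and the Keap1 window is chr9:21239333-21239582. Capitals mark matches to an NF-kB motif, GGG then NNNNN then CC (N is any base), searched on both strands.
Nox1: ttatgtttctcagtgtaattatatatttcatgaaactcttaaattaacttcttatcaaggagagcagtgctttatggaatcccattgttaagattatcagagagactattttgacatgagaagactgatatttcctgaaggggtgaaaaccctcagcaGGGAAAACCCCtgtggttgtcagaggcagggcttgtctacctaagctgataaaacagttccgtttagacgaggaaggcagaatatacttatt
Keap1: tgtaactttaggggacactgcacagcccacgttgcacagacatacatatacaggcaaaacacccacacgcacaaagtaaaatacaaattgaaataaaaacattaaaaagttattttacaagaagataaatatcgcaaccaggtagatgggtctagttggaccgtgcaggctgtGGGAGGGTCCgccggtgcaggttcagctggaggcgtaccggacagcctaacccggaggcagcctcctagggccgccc
The capitals of Nox1 hold 2 overlapping matches, which begin 92 and 91 bases before the start. The match of Keap1 begins 77 bases before the start. A match to this motif was present in 45.8% of 32851 mouse promoter windows of the same length, so it sets neither gene apart from other genes. Neither window held a match on either strand to the gamma-activated site TTCNNNGAA (7.02% of windows), the antioxidant response element core TGACNNNGC (10.2%) or the TATA box TATAAA (12.4%). These are matches of letters, and no binding was measured.

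Counts came from 1 lane per mouse on the nCounter platform, in which paired probes hybridise to an mRNA and their fluorescent barcodes are counted one by one, with no amplification step. Endogenous counts per lane ranged from 98258 to 196878. Each lane was scaled by the geometric mean of 6 reference genes, and a scaled count is a raw count divided by that scale. A count is called above the limit when it exceeds the mean plus 2 SD of the 8 negative control probes of its lane, a limit of 3.16 to 6.78 counts. The panel carried 0 of the 6 listed markers of oviduct epithelium, so the tissue label was not checked against them. Different probes capture with different efficiency, so levels of different genes are not set against each other.

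Nos2 and Nox1 were measured from few counts and Keap1 from many. Nos2 raw counts were 6 to 19, Nox1 raw counts 2 to 35 and Keap1 raw counts 398 to 616 per lane. The fold of high dose over control fitted by edgeR was 1.91 for Nos2, 3.71 for Nox1 and 1.02 for Keap1. Of the 3 genes, 1 (Nox1) passed an adjusted p of 0.05 at the high dose against control in edgeR's quasi-likelihood test, in which 22.4% of the 165 tested genes passed. At the low dose against control 0 of the 3 passed, where 2.42% of all tested genes did. For high against low dose 0 of the 3 passed, where 6.67% did. The unadjusted edgeR p was under 0.05 for Nos2 (0.0141) and Nox1 (0.0111) at the high dose against control, as for 32.1% of all tested genes. It was so for Nox1 (0.0117) at the high against the low dose, as for 22.4% of all tested genes, and for 0 of the 3 at the low dose against control, where 13.9% of all tested genes had such a p. Nox1 entered the test only through its high-dose lanes: 3 of its 6 lanes above the background limit were high-dose lanes, and a gene needed 4 lanes. Its call is therefore no support for a change. Whole-oviduct RNA cannot tell more or fewer cells of a type from more or less RNA per cell.

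**Figure D1:**
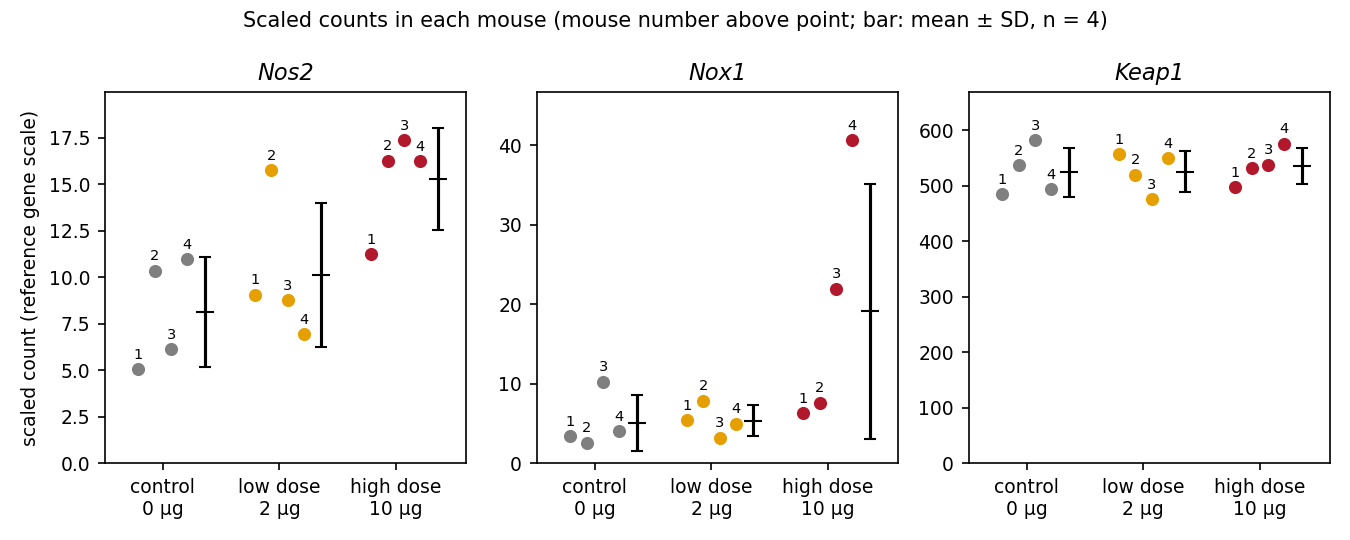
Scaled counts (reference gene scale, linear axes from 0) of Nos2, Nox1 and Keap1 in each of the 12 mice, by LPS dose from control to high dose, with the mean ± SD of each group beside the points (n = 4). The 4 high-dose Nos2 points lie above all control points, the high-dose Nox1 points spread from 6.25 to 40.6, and the Keap1 points of the 3 groups share a range of 476 to 582.

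Nos2, the nitric oxide source, had scaled counts of 5.06, 10.4, 6.14 and 11.0 in control mice 1 to 4. Low-dose mice 1 to 4 had 9.05, 15.8, 8.77 and 6.94, and high-dose mice 1 to 4 had 11.2, 16.3, 17.4 and 16.2. Every high-dose mouse thus lay above every control mouse, but by a narrow margin between the lowest high-dose value of 11.2 and the highest control value of 11.0. Of all tested genes, 25.5% had every high-dose mouse above every control mouse. The Nos2 groups also stayed apart when lanes were scaled by the positive control probes, but overlapped with 4 of the 6 reference genes, TMM, DESeq2 size factors or total count. Means were 8.13 ± 2.97 in control, 10.1 ± 3.87 in low-dose mice and 15.3 ± 2.73 in high-dose mice (SD, n = 4 each). The log2 fold change of high dose over control was 0.93 ± 0.32 (SE), with an edgeR adjusted p of 0.0595, just outside the threshold. Low-dose mice overlapped both other groups, since mouse 2 stood with the high-dose mice and the other 3 with the controls. The log2 fold change of low dose over control was 0.34 ± 0.33 (SE, edgeR adjusted p = 0.714), and that of high over low dose was 0.59 ± 0.31 (edgeR adjusted p = 0.279). Nos2 therefore did not pass the test in any of the 3 comparisons, although its group means rank with dose.

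The raw counts show how few molecules carry these levels. Summed over 4 mice, Nos2 gave 31 counts in control, 46 in low-dose mice and 57 in high-dose mice. It lay above the limit in 3 of 4 control lanes (not in mouse 3), 4 of 4 low-dose lanes and 4 of 4 high-dose lanes. The spread among mice was near what counting alone gives, with a chi-square per degree of freedom of 1.13 in control, 1.64 in low-dose mice and 0.413 in high-dose mice, where 1 is counting error alone. Mouse-to-mouse variation in Nos2 was thus not resolved at this depth.

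Whether Nos2 passed depended on single mice. Without control mouse 4, which had the highest control level, the log2 fold change of high dose over control was 1.12 (edgeR adjusted p = 0.0468). Without high-dose mouse 1, which had the lowest high-dose level, it was 1.05 (edgeR adjusted p = 0.0415). Without low-dose mouse 2 it was 0.93, with an edgeR adjusted p of 0.0303. Of the 12 fits that each left out 1 mouse, these 3 brought Nos2 past the threshold. Imaging succeeded for 62.3% to 90.2% of the fields of view of a lane, with the lowest shares in control mice 2 and 4. Without both, the log2 fold change was 1.44 for Nos2 (edgeR adjusted p = 0.0306) and 1.51 for Nox1 (edgeR adjusted p = 0.221).

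Nox1, the superoxide source, was uneven among high-dose mice. Its scaled counts were 3.37, 2.59, 10.2 and 3.99 in control mice 1 to 4, and 5.43, 7.88, 3.19 and 4.95 in low-dose mice 1 to 4. High-dose mice 1 to 4 had 6.25, 7.59, 21.9 and 40.6. High-dose mice 3 and 4 lay above every control and low-dose mouse, and high-dose mice 1 and 2 lay inside the range of the controls. Means were 5.05 ± 3.50 in control, 5.36 ± 1.93 in low-dose mice and 19.1 ± 16.0 in high-dose mice (SD, n = 4 each), and the median at the high dose was 14.8. The log2 fold change of high dose over control was 1.89 ± 0.62 (SE), with an edgeR adjusted p of 0.0494, just inside the threshold. The high- and low-dose groups differed by 1.82 ± 0.61 on the log2 scale (SE, edgeR adjusted p = 0.103), and the low dose and control by 0.07 ± 0.70 (edgeR adjusted p = 0.993).

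For Nox1 the raw counts spread beyond counting error at the high dose. Raw counts were 4, 2, 10 and 4 in control, 6, 9, 4 and 5 in low-dose mice and 5, 7, 24 and 35 at the high dose. The exact 95% Poisson interval of the 35 counts in high-dose mouse 4 was 24.4 to 48.7, and that of the 24 counts in mouse 3 was 15.4 to 35.7. High-dose mouse 2, with 7 counts, had an interval of 2.81 to 14.4, and mouse 1, with 5 counts, one of 1.62 to 11.7. These intervals cover counting error only, and on raw counts those of mice 1 and 2 do not reach those of mice 3 and 4. Divided by the lane scale, the interval of mouse 2 reached up to 15.6 and that of mouse 3 down to 14.0, so these neighbours overlapped, while that of mouse 4 began at 28.3. The chi-square per degree of freedom was 11.4 at the high dose, against 0.835 at the low dose and 2.32 in control. Counts passed the limit in 1 of 4 control lanes (mouse 3), 2 of 4 low-dose lanes (mice 1 and 2) and 3 of 4 high-dose lanes (mice 2, 3 and 4). Thus 5 of the 8 control and low-dose values lay under the level set by probes without a target, and the fold change is computed against that floor.

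**Figure D2:**
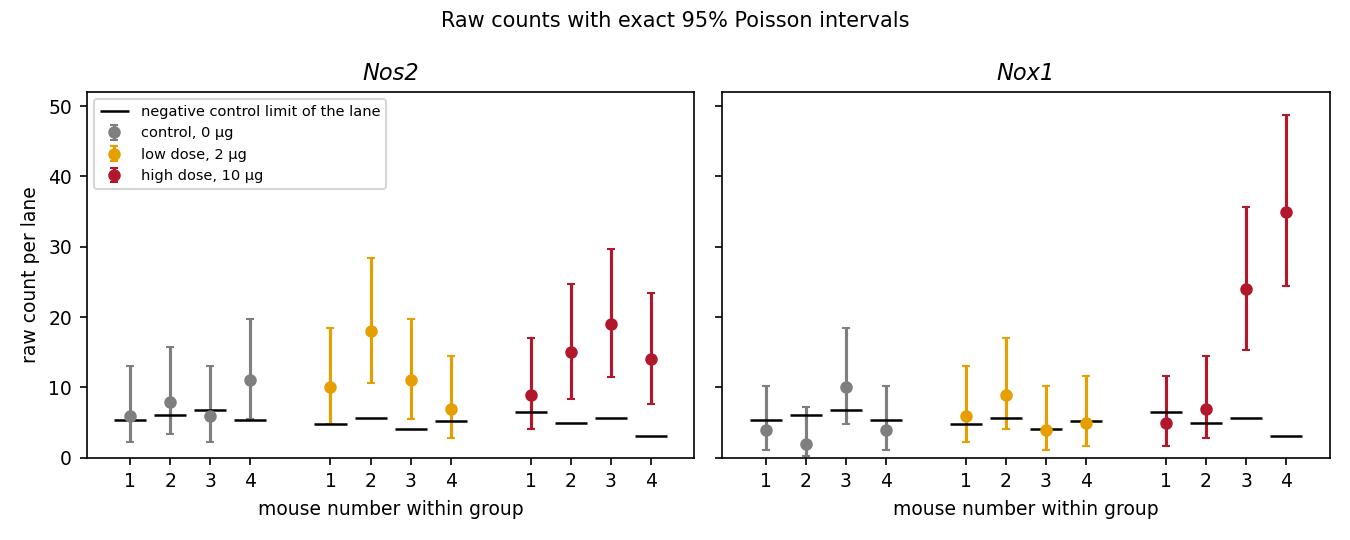
Raw counts of Nos2 and Nox1 per lane for mice 1 to 4 of each dose group, from control to high dose, with exact 95% Poisson intervals as bars and the negative control limit of each lane as a short black line. The 24 and 35 Nox1 counts of high-dose mice 3 and 4 stand clear of the limit, while 3 of 4 control lanes lie under it.

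The call on Nox1 rested on single mice as well. Without high-dose mouse 4 the log2 fold change of high dose over control was 1.25 (edgeR adjusted p = 0.162), and without high-dose mouse 3 it was 1.81 (edgeR adjusted p = 0.106). Without control mouse 3, the highest control, it was 2.47 (edgeR adjusted p = 0.025). Without high-dose mouse 1 it was 2.17 (edgeR adjusted p = 0.0172), and without high-dose mouse 2 it was 2.15 (edgeR adjusted p = 0.028). Of the 12 fits that each left out 1 mouse, these 3 kept Nox1 past the threshold and 9 did not. Of 14 other settings 2 kept it, positive control scaling (1.83, edgeR adjusted p = 0.0482) and DESeq2's own test (1.61, adjusted p = 0.0438). With TMM scaling it was 1.62 (edgeR adjusted p = 0.0548). With the replicate number as a block it was 1.76 (edgeR adjusted p = 0.075), so the call was lost. Without high-dose mouse 1, Nox1 also passed at the high against the low dose, with a log2 fold change of 2.10 (edgeR adjusted p = 0.0454). In that fit 8.48% of all tested genes passed.

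Keap1, the sensor, was measured precisely, and its 3 groups overlapped on the reference gene scale. Its scaled counts were 485, 537, 582 and 494 in control mice 1 to 4, and 558, 520, 476 and 550 in low-dose mice 1 to 4. High-dose mice 1 to 4 had 497, 532, 538 and 576, inside the range of the controls. Means were 524 ± 44.6 in control, 526 ± 37.1 in low-dose mice and 536 ± 32.3 in high-dose mice (SD, n = 4 each). The log2 fold change of high dose over control was 0.03 ± 0.09 (SE, edgeR adjusted p = 0.843), a fold of 1.02 with a range of 0.96 to 1.09 at 1 SE either side. That of low dose over control was 0.00 ± 0.09 (edgeR adjusted p = 0.996), and that of high over low dose was 0.03 ± 0.09 (edgeR adjusted p = 0.931). The coefficient of variation among mice of a group was 6.03% to 8.50% for Keap1, against 17.9% to 38.2% for Nos2 and 36.1% to 83.8% for Nox1.

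The level of Keap1 relative to control depended on the scale. Endogenous totals were higher with dose, at 116830 ± 12566 in control, 146836 ± 15628 in low-dose mice and 165671 ± 28250 in high-dose mice (SD, n = 4). Keap1 took 393 to 474 of every 100000 counts in control lanes, 361 to 429 in low-dose mice and 292 to 310 in high-dose mice. Its share was thus lower in every high-dose mouse than in every control mouse. How many other genes separated in this way was not counted, so the gap does not set Keap1 apart. Scaled by total count, the log2 fold change of high dose over control was -0.56 (edgeR adjusted p = 0.000783), in a fit where 37.6% of all tested genes passed as lower. It was -0.22 with TMM scaling (edgeR adjusted p = 0.0262, 12.1% of genes lower), -0.25 with DESeq2 size factors in edgeR (adjusted p = 0.0181, 15.2% lower) and -0.25 in DESeq2's own test (adjusted p = 0.00135, 18.8% lower). With total count scaling Keap1 also passed as lower at the high against the low dose, by -0.44 (edgeR adjusted p = 0.0106), where 21.8% of genes did. These scalings place the median of all tested genes at different points, with a log2 fold change of high dose over control of 0.24 on the reference scale, 0.00 with TMM, -0.02 with DESeq2 size factors and -0.34 by total count. Relative to that median Keap1 was at -0.21, -0.22, -0.22 and -0.21 on these 4 scales. Nos2 was 0.69, 0.68, 0.68 and 0.69 above the median on the same scales, and Nox1 1.65, 1.62, 1.62 and 1.62 above it. A change of scale shifts the log2 fold changes of all genes by nearly the same amount. Positions relative to the median are therefore kept by arithmetic and are no support for a change, while the absolute changes depend on the scale.

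**Figure D3:**
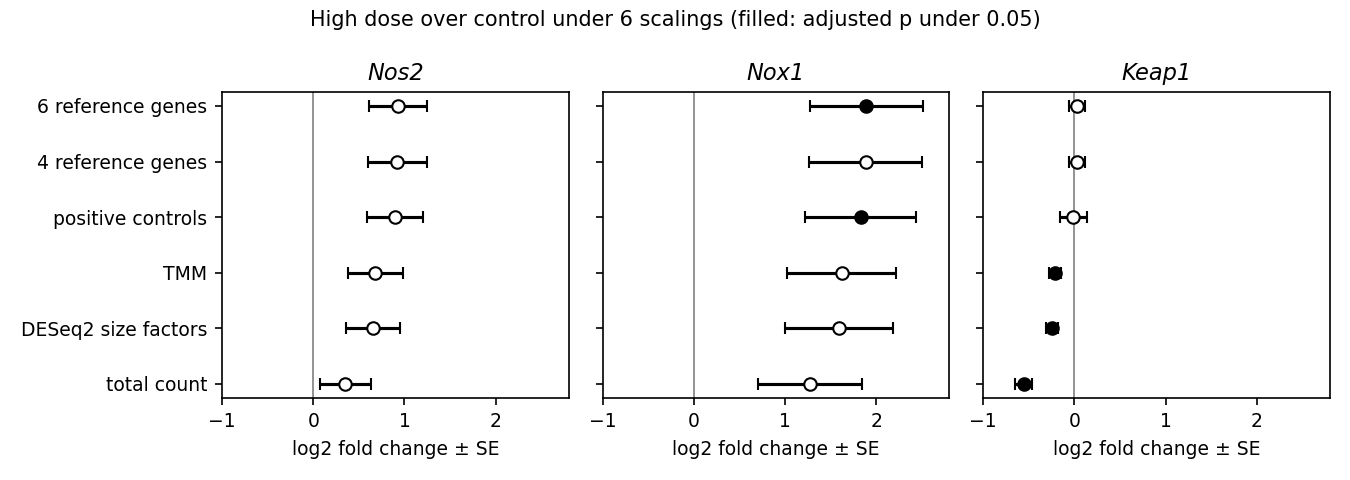
Log2 fold change (± SE) of high dose over control for Nos2, Nox1 and Keap1 under 6 scalings of the lanes, with filled points where the edgeR adjusted p was under 0.05. All Nos2 and Nox1 points lie right of 0, while Keap1 lies near 0 on the reference gene scale and reaches -0.56 by total count.

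The signals known to induce Nos2 were described next, since LPS acts on the gene through the receptor Tlr4 and NF-kB, and interferons add to it. The list of 24 genes had 11 on the panel and 9 past the filter. At the high dose against control 3 of the 9 rose and 0 fell (edgeR, adjusted p under 0.05), where 22.4% of all tested genes passed. Their median log2 fold change was 0.37, against 0.24 for all tested genes. At the low dose against control 0 passed, where 2.42% of all tested genes did (median 0.16, against 0.08 for all).

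Il1b, the cytokine interleukin-1 beta, rose by 1.27 ± 0.34 on the log2 scale at the high dose over control (SE, edgeR adjusted p = 0.0178). By total count it had 0.71 (edgeR adjusted p = 0.0515), which did not pass. It averaged 22.6 ± 10.3 scaled counts in control, 31.2 ± 10.1 in low-dose mice and 53.9 ± 11.7 in high-dose mice (SD, n = 4). Ly96, which encodes the MD-2 protein that binds LPS with Tlr4, rose by 0.42 ± 0.12 (SE, edgeR adjusted p = 0.0261), but its log2 fold change was 0.18 with TMM and -0.16 by total count, and it passed with neither. Tlr4 itself had a log2 fold change of 0.29 ± 0.14 (SE, edgeR adjusted p = 0.161). Tnf, the cytokine tumour necrosis factor, had few counts, with means of 6.29 ± 3.77 in control, 9.88 ± 9.57 in low-dose mice and 25.4 ± 8.41 in high-dose mice (SD, n = 4). Its log2 fold change of high dose over control was 2.06 ± 0.72 (SE, edgeR adjusted p = 0.0611), and no high-dose mouse overlapped the controls. The same separation was found for 25.5% of all tested genes. Tnf counts passed the limit in 1 of 4 control lanes, 2 of 4 low-dose lanes and 4 of 4 high-dose lanes. A gene needed 4 lanes, so Tnf, like Nox1, entered the test only through its high-dose lanes. Its p and its separation are therefore no support for a change. Ifng, which encodes interferon-gamma, was left untested by the filter. Its raw counts in high-dose mice 1 to 4 were 1, 2, 6 and 8, above the limit in mice 3 and 4, against 1 of 4 low-dose lanes and 0 of 4 control lanes above it.

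The partners of Nox1 were mostly not on the panel, with 3 of 15 listed genes measured. Rac1, a small GTPase that takes part in activating the Nox1 oxidase, had a log2 fold change of high dose over control of 0.03 ± 0.08 (SE, edgeR adjusted p = 0.843). Prkca and Prkcb1 (current symbol Prkcb), protein kinase C isoforms that phosphorylate oxidase subunits, had -0.10 ± 0.12 (edgeR adjusted p = 0.62) and 0.33 ± 0.15 (edgeR adjusted p = 0.161). Of the 3, 0 passed in any of the 3 comparisons by edgeR on the reference scale, and their median at the high dose against control was 0.03, against 0.24 for all tested genes. Rac1 passed as lower with TMM (-0.22, where 12.1% of all tested genes did), DESeq2 size factors (-0.25, 15.2% of genes), DESeq2's own test (-0.25, 18.8% of genes) and total count (-0.56, 37.6% of genes). Prkca passed as lower with DESeq2 size factors (-0.36), DESeq2's own test (-0.37) and total count (-0.67), and not with TMM (-0.33).

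The partners of Keap1 were measured for 4 of 15 listed genes, Nfe2l2 and the small Maf proteins with which Nrf2 binds DNA. At the high dose against control 0 of the 4 passed, with a median log2 fold change of 0.30 against 0.24 for all tested genes, and 0 passed in the other comparisons. Nfe2l2 averaged 2296 ± 418 scaled counts in control, 2488 ± 169 in low-dose mice and 2531 ± 258 in high-dose mice (SD, n = 4). Its log2 fold change of high dose over control was 0.14 ± 0.13 (SE, edgeR adjusted p = 0.502). Mafk averaged 141 ± 25.4 in control, 147 ± 27.1 in low-dose mice and 193 ± 14.7 in high-dose mice (SD, n = 4). Its 4 high-dose values, 184, 192, 215 and 183, lay above all control and low-dose values, and the log2 fold change of high dose over control was 0.46 ± 0.16 (SE, edgeR adjusted p = 0.0643). With TMM it was 0.22 and by total count -0.12, and it passed with neither. Of all tested genes, 14.5% had every high-dose mouse above every low-dose mouse. Maff had a log2 fold change of 0.71 ± 0.28 (edgeR adjusted p = 0.0964) and Mafg of 0.08 ± 0.19 (edgeR adjusted p = 0.823). On total count scaling Nfe2l2 (-0.43) and Mafg (-0.50) passed as lower. At the low dose against control, 3.64% of all tested genes had every low-dose mouse above every control mouse, and 0 of the 3 members did. The Nrf2 target genes on the list (Hmox1, Nqo1, Gclc, Gclm, Txnrd1 and Srxn1), the nitric oxide and arginine list (0 of 10 genes) and the list of other oxidant and lipid oxidising enzymes (0 of 12) were not measured on this panel.

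**Figure D4:**
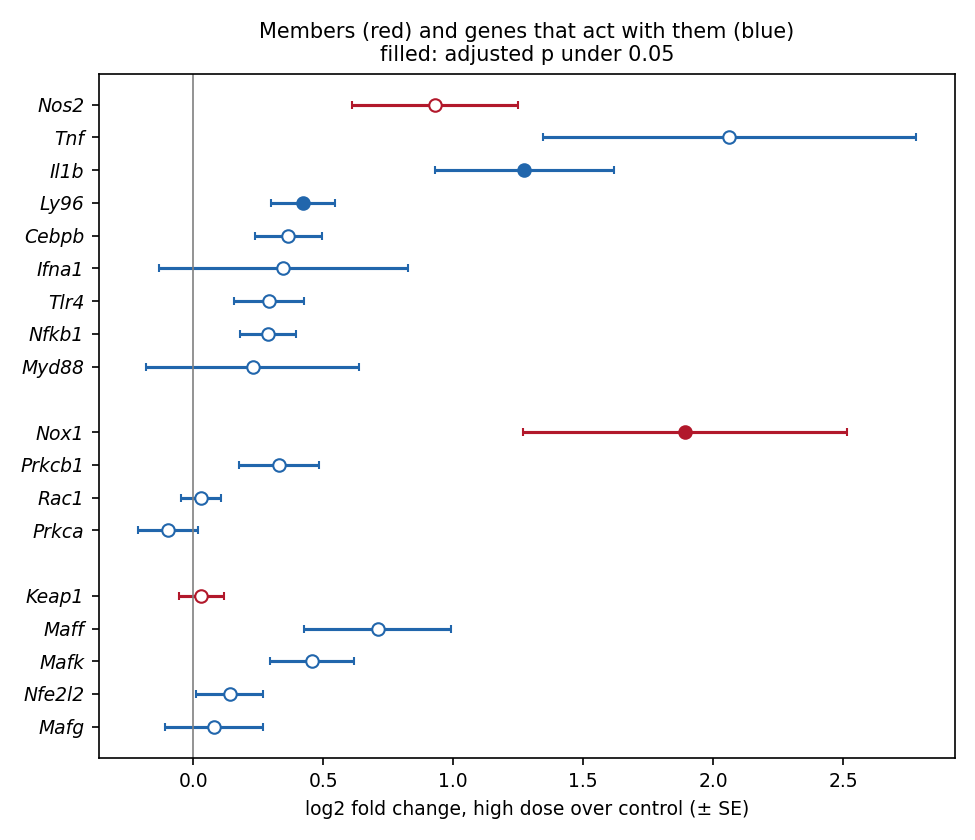
Log2 fold change (± SE) of high dose over control, on the reference gene scale, for Nos2, Nox1 and Keap1 (red) and tested genes of the lists set beside each of them (blue), with filled points where the edgeR adjusted p was under 0.05. Il1b and Ly96 are the filled blue points, and the points listed with Keap1 and Nox1 are open.

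The genes of the panel whose profile over the 12 lanes came nearest to each member were found by the root mean square difference of centred log2(scaled count + 1) values over 164 other genes. For Nos2 they were C2 (0.264), a complement protease, Il1b (0.274) and Csf1 (0.292), the macrophage growth factor, where the median gene was at 0.532. C2 averaged 887 ± 271 scaled counts in control, 1225 ± 475 in low-dose mice and 2007 ± 238 in high-dose mice (SD, n = 4). For Nox1 they included C4a (0.563), a complement gene whose probe may share its near-identical copy C4b, and Ccl19 (0.579), a chemokine of lymphoid tissue, with a median gene at 0.975. For Keap1 they included Rac1 (0.0620) and the G protein subunit gene Gnb1 (0.0767), with a median gene at 0.356. The measure describes these 12 lanes and carries no test, and it was larger for Nos2 and Nox1, the members of few counts, than for Keap1.

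After the values were seen, Nox1 was set beside Ifng in the same mice. High-dose mice 3 and 4, with the higher Nox1, were also the higher pair for Ifng, which had scaled counts of 1.25, 2.17, 5.48 and 9.28 in high-dose mice 1 to 4. The other groups did not show this order. Low-dose mouse 3 had the highest Ifng (5.58) and the lowest Nox1 (3.19) of its group. Control mouse 2 had the highest Ifng (3.88) and the lowest Nox1 (2.59) of the controls. The Nox1 count of low-dose mouse 3 and both counts of control mouse 2 lay under the negative control limit. These orders therefore cannot tell whether the 2 genes vary together. High-dose mice 3 and 4 were also the higher pair of their group for Tnf and Il1b, so their order was not particular to Ifng. It did not hold for C1qa and C1qb, which were highest in high-dose mouse 2. Within the low dose, mouse 2 had the highest Nos2 (15.8), Nox1 (7.88) and Il1b (46.4) of its group. That mouse also had the highest Ly96 (272), C1qa (1893) and C1qb (2670), so this was not particular to these genes. Its Tnf went the other way, at 2.63 against 16.3 in mouse 1 and 19.8 in mouse 4.

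Some markers of immune cells also passed as higher at the high dose against control in the same oviducts, a comparison in which 22.4% of all tested genes passed. The 4 measured macrophage and monocyte markers summed to 1470 to 2077 scaled counts in control mice. Their sum was 1357 to 5114 in low-dose mice and 4034 to 5058 in high-dose mice. Of the 4, 3 (C1qa, C1qb and C3ar1) rose at the high dose against control. The fourth did not pass, with a log2 fold change of 0.17 ± 0.42 (SE, edgeR adjusted p = 0.841). At the high dose C1qa averaged 1560 and C1qb 2403 scaled counts, so most of the sum came from these genes. The 3 measured neutrophil markers summed to 77.6 to 125 in control, 125 to 282 in low-dose mice and 196 to 357 in high-dose mice, and 2 of the 3 rose at the high dose against control, with Il8ra and Il8rb under the limit in all control lanes. At the high dose Il8rb averaged 46.8 and Il8ra 5.44 scaled counts, so most of the sum came from the third marker. That marker is carried by other leukocytes too and also rose, so the sum is not a level of neutrophils alone. The 8 measured T and NK cell markers summed to 54.8 to 97.1 in control, 87.7 to 142 in low-dose mice and 114 to 137 in high-dose mice, and 2 of 7 tested rose at the high dose against control, a share near that of all tested genes, with Ccr4, Cd40lg, Fasl and Ifng under the limit in all control lanes. The 2 measured genes of the smooth muscle and vessel list, Myl2 and Ppp1r12b, summed to 50.6 to 85.4 in control, 63.0 to 77.3 in low-dose mice and 61.5 to 85.0 in high-dose mice, and 0 of 2 passed. Myl2 had raw counts of 4 to 10 and lay above the limit in 1 of 4 control lanes. Neither gene is specific to smooth muscle or vessel, so their sum gives no level of those tissues. The part of these markers in the levels of Nos2 and Nox1 was not tested.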

How the data were processed

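Oviduct RNA of 12 mice was counted on the nCounter GX Mouse Inflammation panel. The authors deposited 1 table of raw barcode counts, 1 lane per mouse, which were given the unit expected counts since a binding density line with decimals stands in the same columns. All probe values were whole numbers, so rounding them had no effect. What the instrument software did is not given in the sources used here. The table holds 185 endogenous probes (179 inflammation and 6 reference genes), 8 negative and 6 positive control probes, and RefSeq names (GRCm38.p6) matched 179 of the 185.

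Sample titles gave the groups. The 165 genes with a raw count above the negative control limit in at least 4 of 12 lanes were tested by quasi-likelihood in edgeR 4.0.16 (R 4.3.3), in 1 model over the 12 lanes with the reference gene scale as offset and group as the only term, and Benjamini-Hochberg adjustment over all 165. The procedure was tested on simulated data. P-values weigh the difference between groups against the spread among these mice and the counting error. In edgeR the spread estimate of each gene also draws on the other tested genes. Alternatives were other scalings, filters and samples, DESeq2 1.42.0, limma-voom (limma 3.58.1) and the study's stated test. Over the 18 pairs of lanes within groups chi-square per degree of freedom was at least 15.2, so no lane was a duplicate.

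The members, lists and alternatives were chosen with earlier results of these data known. Named are the 3 members, list members on the panel where 4 or fewer, otherwise up to 2 highest and 2 lowest log2 fold changes among those past the threshold at the high dose, Tlr4, Rac1, Nfe2l2, Tnf, Il1b and Ifng whatever their values, and the 3 nearest profiles of each member. The lists were NADPH oxidase partners, Keap1 and Nrf2 partners, signals known to induce Nos2, nitric oxide and arginine, and other oxidant enzymes, beside 5 marker lists. Deviations from the group means of control and high-dose mice with the same replicate number correlated at 0.114 to 0.388 in all 4 pairs, over 0.1. For high dose against control the numbers were therefore taken as pairs from the data, the labels naming no shared batch. The main fit did not use these pairs, and the blocked value is given beside the Nox1 result. With the block, the log2 fold change was 0.93 for Nos2 (edgeR adjusted p = 0.052) and 0.03 for Keap1 (edgeR adjusted p = 0.884). In the other comparisons not every pair was over 0.1. Some genes that this rule names are not reported here.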

Additional observations from a re-analysis of the deposited data

Results flagged for a closer look

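In 3 of 66 groups examined (22 genes in 3 dose groups), 1 mouse stood apart from the other 3 of its group by Dixon's criterion, which chance alone does in about 1 of 20 groups. None of the 3 was a group of Nos2, Nox1 or Keap1. Low-dose mouse 2 had an Il1b scaled count of 46.4, against 25.5 to 27.2 in the other low-dose mice, and it also had the highest Nos2 of that group. Control mouse 2 had an Ifng scaled count of 3.88, against 0.844 to 1.02 in the other controls, from 3 raw counts under the negative control limit. High-dose mouse 1 had a Csf1 scaled count of 490.0, against 734 to 757 in the other high-dose mice, and the lowest Nos2 and Nox1 of that group.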

How the results depend on the processing

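Of 480 values recomputed under alternatives, 386 kept their side of the threshold (for counts, stayed within 1.5 times). Among these a change of sign was not counted where neither fit passed, as for Keap1 with positive control scaling. Of the others, 61 moved, 21 weakened, 7 strengthened and 5 reversed. The cause was not tested, except that fewer genes, mice or reference genes enter where a setting says so. At the high dose against control, the number of genes called (37) was 59 with DESeq2 size factors (34 higher, 25 lower), 92 by total count (30 higher, 62 lower), 66 by DESeq2's own test and 24 by the study's stated test, and with TMM 34 were higher and 20 lower. Members called (1) were 0 with 4 reference genes, the study's stated test, no filter, a filter on all 12 lanes, background subtracted, the replicate block or only the 2 groups compared, and 2 by DESeq2's own test. List members called (3) were 6 by total count, 5 with positive controls, 5 by DESeq2's own test, 5 by limma-voom, 1 by the study's stated test and 5 by it unadjusted, and 7 without control mice 2 and 4.

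Nos2 passed at 0.95 by limma-voom, 0.88 by the study's stated test unadjusted and 1.44 without control mice 2 and 4, the lanes with the lowest share of fields counted. Nox1 did not pass at 1.62 (TMM, also limma-voom), 1.59 (DESeq2 size factors), 1.28 (total count), 1.88 (4 reference genes), 1.52 (the study's stated test, adjusted or not), 1.89 (no filter, also only the 2 groups), 2.31 (background subtracted) or 1.51 (without control mice 2 and 4). Keap1 turned to -0.22 (TMM), -0.25 (DESeq2 size factors, also DESeq2's own test), -0.56 (total count) and -0.01 (positive controls), and at the high against the low dose to -0.44 by total count.

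At the low dose against control, genes called (4) were 11 by DESeq2's own test, 2 by limma-voom, 11 and, unadjusted, 21 by the study's stated test, 1 with only the 2 groups and 0 without control mice 2 and 4 (23 at an unadjusted edgeR p under 0.05). At the high against the low dose, genes called (11) were 45 by total count, 7 with positive controls, 18 by DESeq2's own test, 21 and, unadjusted, 32 by the study's stated test and 7 without control mice 2 and 4. Members called there were 1 by total count, and list members (1) were 4 by total count and 4 by the study's stated test unadjusted.

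Leaving out each of the 12 mice in turn gave 30 to 45 genes called at the high dose against control, 1 to 14 at the low dose against control and 6 to 14 at the high against the low dose. Members called were 0 to 2 and 0 to 1 at the high dose against control and against the low dose, and list members called 1 to 9 and 0 to 1. The log2 fold change of high dose over control was 0.74 to 1.12 for Nos2, 1.25 to 2.47 for Nox1 and -0.01 to 0.09 for Keap1, and Nox1 at the high against the low dose was 1.18 to 2.10.

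Over the 3 comparisons, mice that share a replicate number correlated at -0.16 to 0.59 in 12 pairs, 9 of them over 0.1, and 7 of 12 samples correlated best with their own number. With the replicate block, genes called were 34, 3 and 11 in the 3 comparisons, members called were 0, and Nox1 had a log2 fold change of 1.76 at the high dose over control, not past the threshold. The block changed no other call of a member.

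The control lanes of Nos2 and Nox1 summed to 31 and 20 counts, and both left the test under the filter on all 12 lanes. The direction of Keap1 depends on the scale. The panel measures few partners of these genes, and there were 4 mice per group and 1 time point. The labels name no shared batch.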
